A study of Homo sapiens with 24 samples.

Results

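IFIT1, IFIT2, IFIT3 and IFIT5 are human genes of the family of interferon-induced proteins with tetratricopeptide repeats. They were taken by gene symbol from a count table of 58735 genes, which gave 4 members, and all 4 passed the filter on low counts in every comparison. Messenger RNA had been sequenced from cells labelled THP-1 and MOLM-13. These names belong to established human lines of acute myeloid leukemia that carry the MLL-AF9 fusion of KMT2A and MLLT3. Each line was kept for 72 h with L-ascorbic acid (LAA, vitamin C) at 250 µM plus olaparib at 1 µM, with LAA alone at 250 µM, with olaparib alone at 1 µM, or with the vehicle of both, PBS and DMSO. That gave 8 groups of 3 libraries, 24 in all. LAA is a cofactor of the TET enzymes, which oxidize methylated cytosine, and olaparib is a PARP inhibitor used against cancers with defects in DNA repair. All groups share the treatment time and, by the lines that their labels name, the fusion. A label names 1 line only and does not stand for leukemia in general.

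IFIT proteins are made in large amounts once a cell has sensed interferon or foreign nucleic acid. Interferon binds its receptor, the kinases JAK1 and TYK2 activate STAT2, and this joins IRF9 in the complex ISGF3, which binds interferon-stimulated response elements in promoters. IFIT1 binds RNA whose cap lacks ribose methylation and blocks its translation. IFIT3 binds IFIT1 and stabilizes it on such RNA. IFIT2 forms complexes with IFIT1 and IFIT3 and has been tied to apoptosis. IFIT5 works without these partners and binds RNA that ends in a triphosphate.

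The 4 genes lie on the plus strand of chromosome 10 (hg38), all protein-coding, with the family gene IFIT1B and the pseudogene IFIT6P between IFIT3 and IFIT1. IFIT2 (ENSG00000119922) spans chr10:89283694-89309276, IFIT3 (ENSG00000119917) chr10:89327894-89340971, IFIT1 (ENSG00000185745) chr10:89392546-89406486 and IFIT5 (ENSG00000152778) chr10:89414586-89421001. The core of the response element was searched as GAAA, 2 bases of any kind and GAAA again, on both strands, so that a match on the minus strand reads TTTC, 2 bases and TTTC, in the 250 bases before each RefSeq transcript start (GRCh38.p14). The promoter table had entries for 3 of the 4 members, IFIT1, IFIT3 and IFIT5. The windows are shown because all 4 of those found hold the motif 2 times, while 3.02% of 35116 windows and 3.71% of 27305 genes hold it at all. They are written 5′ to 3′ on the plus strand, with the motif matches in capitals. IFIT3 has a pair of windows, for its upstream and its downstream transcript start.
IFIT1, chr10:89392373-89392622: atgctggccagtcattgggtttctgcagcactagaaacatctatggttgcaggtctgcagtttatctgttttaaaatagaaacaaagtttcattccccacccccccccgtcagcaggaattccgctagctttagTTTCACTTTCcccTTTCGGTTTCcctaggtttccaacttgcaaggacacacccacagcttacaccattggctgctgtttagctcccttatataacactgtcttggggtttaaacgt
IFIT3 upstream start, chr10:89327747-89327996: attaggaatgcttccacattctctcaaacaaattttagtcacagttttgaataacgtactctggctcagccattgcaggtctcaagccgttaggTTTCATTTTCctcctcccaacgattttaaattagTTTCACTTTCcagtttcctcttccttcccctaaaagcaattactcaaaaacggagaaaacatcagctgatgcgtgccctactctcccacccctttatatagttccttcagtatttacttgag
IFIT3 downstream start, chr10:89332279-89332528: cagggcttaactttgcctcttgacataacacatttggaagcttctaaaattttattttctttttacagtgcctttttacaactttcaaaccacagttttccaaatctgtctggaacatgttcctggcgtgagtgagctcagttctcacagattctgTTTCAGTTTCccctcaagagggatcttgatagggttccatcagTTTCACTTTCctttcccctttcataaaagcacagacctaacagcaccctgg
IFIT5, chr10:89414318-89414567: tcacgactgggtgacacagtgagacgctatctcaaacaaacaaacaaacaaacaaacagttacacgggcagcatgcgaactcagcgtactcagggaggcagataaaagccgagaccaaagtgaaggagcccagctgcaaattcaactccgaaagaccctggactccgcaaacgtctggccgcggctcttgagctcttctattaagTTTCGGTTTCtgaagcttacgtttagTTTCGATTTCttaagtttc
All matches were on the minus strand. In IFIT1 they were TTTCACTTTC and TTTCGGTTTC, 3 bases apart, and in IFIT5 TTTCGGTTTC and TTTCGATTTC, the second ending 10 bases before the start. The minus-strand gene LIPA starts within this IFIT5 window, at chr10:89414557. The first IFIT5 match lies inside LIPA and the second crosses its start, so both also lie at the start of LIPA. IFIT3 held TTTCATTTTC and TTTCACTTTC at the upstream start and TTTCAGTTTC and TTTCACTTTC at the downstream start. The same window of IFIT1B, which had 12 counts over the 12 THP-1 libraries and 3 over the 12 labelled MOLM-13, held 0 matches. Among 38 other interferon-stimulated genes with an entry, 23 held the motif. A match describes the letters only.

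The libraries held 18666259 to 25265870 counts each, of which 6.63 to 11% were mitochondrial, with TMM scaling factors between 0.943 and 1.04. Levels are CPM, counts scaled to the library size after TMM over the 24 libraries. Each group has n = 3 libraries and errors are SD unless called SE. The labels do not say whether replicates were separate cultures, so the spread behind a p-value may be technical. All 9 monocytic marker genes were detected in each group, and their summed level was 662 to 1033 CPM per library. The libraries labelled MOLM-13 stood close to THP-1: the correlation of group mean log2 CPM across 17089 genes was 0.987 with both compounds, 0.991 with LAA, 0.989 with olaparib and 0.99 with vehicle. Only 7 protein-coding genes (DYSF, RAB34, DLX5, EMD, MEIS1, PROK2 and IGF2BP1) had at least 2 CPM in each vehicle library labelled MOLM-13 and at most 12 counts over the THP-1 vehicle libraries. Their summed level in the libraries labelled MOLM-13 was 4.96 ± 1.21 CPM with both compounds, 5.74 ± 0.69 CPM with LAA, 18.7 ± 0.71 CPM with olaparib and 31.8 ± 0.86 CPM with vehicle. In THP-1 it was 3.07 ± 0.92 CPM with both, of which DYSF held 2.80, 0.774 ± 0.438 CPM with LAA, 0.555 ± 0.268 CPM with olaparib and 0.45 ± 0.193 CPM with vehicle. By the same rule with the labels exchanged, TMEM176B was the 1 gene that marked THP-1. It averaged 0.207 ± 0.157 CPM in the libraries labelled MOLM-13 with both compounds, 0.793 ± 0.232 CPM with LAA, 0.241 ± 0.209 CPM with olaparib and 0.170 ± 0.149 CPM with vehicle, and in THP-1 8.91 ± 1.60, 7.70 ± 0.80, 3.19 ± 1.05 and 4.13 ± 1.04 CPM in that order of treatments. The marker levels differed between treatments that carry the same line label. Both marker sets were chosen by their level in vehicle libraries, so part of a lower level with other treatments may come from that choice. Whether every library labelled MOLM-13 holds that line was not established here, and the part of this in the results on those libraries and in the comparisons between the labels was not tested. The fits within THP-1 use no library labelled MOLM-13, while the CPM levels share 1 TMM scaling over both labels.

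**Figure D1:**
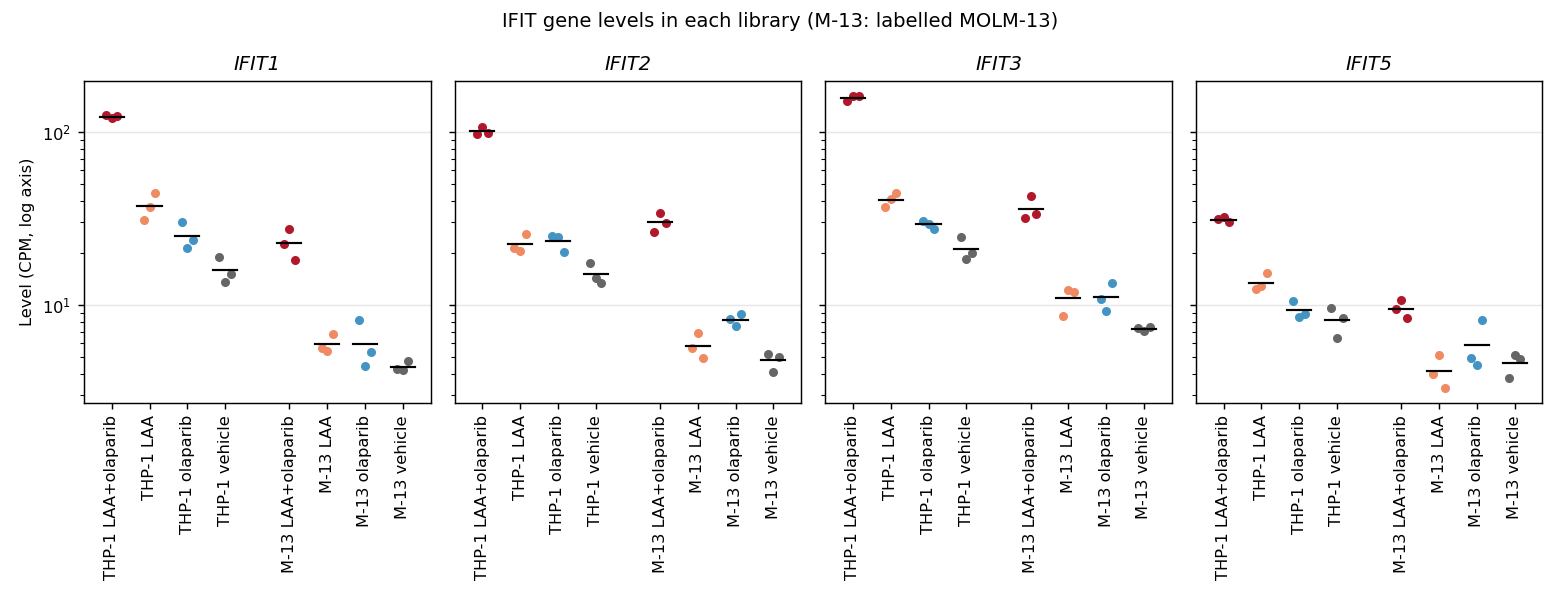
Level of each IFIT gene in CPM (log axis) in the 24 libraries, with THP-1 left of the libraries labelled MOLM-13 (M-13), points for libraries and bars for group means of 3. In THP-1 the LAA+olaparib libraries of IFIT3 sit between 152 and 162 CPM, above every other library's IFIT3 level.

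The first comparison asked what both compounds together did in THP-1, and all 4 genes rose. IFIT3 had 152, 161 and 162 CPM with LAA+olaparib, against 24.9, 18.4 and 19.9 CPM with vehicle. IFIT1 had 125, 120 and 124 CPM with LAA+olaparib, against 18.9, 13.6 and 15.1 CPM with vehicle. IFIT2 had 97.7, 107 and 98.8 CPM with LAA+olaparib, against 17.5, 14.4 and 13.4 CPM with vehicle. For each of these 3 genes every treated library lay far above every vehicle library. IFIT5, the member that acts without the others, had 31.4, 32.1 and 30.0 CPM with LAA+olaparib, against 9.65, 6.45 and 8.39 CPM with vehicle, so that none of the 4 overlapped, beside 20.6% of tested genes that were higher without overlap. The log2 fold change was 2.94 ± 0.12 (SE) for IFIT1, which is 7.68-fold (edgeR quasi-likelihood test, Benjamini-Hochberg adjusted p = 2.39e-16). IFIT3 rose 7.44-fold (2.90 ± 0.10; edgeR adjusted p = 1.76e-18) and IFIT2 6.64-fold (2.73 ± 0.11; edgeR adjusted p = 5.50e-17). IFIT5 rose 3.78-fold (1.92 ± 0.13; edgeR adjusted p = 1.01e-11), the smallest fold of the family here. So 4 of 4 members were called higher, where 13.5% of 16331 tested genes were, and the members' median log2 fold change was 2.81 against -0.01 over all tested genes. The members were chosen with earlier results of these data known, so these counts are no independent test. In bulk RNA, a change in the share of cells that express a gene and a change in RNA per cell cannot be told apart.

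With LAA alone all 4 genes rose in THP-1, less than with both compounds. IFIT1 had 31.0, 37.0 and 44.2 CPM with LAA and averaged 37.4 ± 6.63 CPM, against 15.9 ± 2.76 CPM with vehicle. IFIT3 had 36.7, 40.9 and 44.4 CPM with LAA and averaged 40.7 ± 3.85 CPM, against 21.1 ± 3.38 CPM with vehicle. The libraries of both genes did not overlap with vehicle, and the folds were 2.35 for IFIT1 (log2 1.23 ± 0.13; edgeR adjusted p = 3.96e-07) and 1.92 for IFIT3 (0.94 ± 0.10; edgeR adjusted p = 3.84e-07). IFIT5 had 12.4, 12.8 and 15.2 CPM with LAA and rose 1.64-fold (0.71 ± 0.14; edgeR adjusted p = 0.00366). IFIT2, the partner of IFIT1 and IFIT3, had 21.5, 20.6 and 25.6 CPM with LAA and rose 1.49-fold (0.58 ± 0.11; edgeR adjusted p = 0.00366). Both were above every vehicle library, as were IFIT1 and IFIT3, beside 10.1% of tested genes higher without overlap. The share of tested genes called higher with LAA was 0.937%, against 4 of 4 members, and the members' median log2 fold change was 0.83. Without THP-1 LAA replicate 3, 2 members were called: the edgeR adjusted p was 0.0603 for IFIT2 and 0.053 for IFIT5. Without THP-1 vehicle replicate 2 that of IFIT5 was 0.0597, and with limma on log2(FPKM + 1) that of IFIT2 was 0.0525. Over all alternatives the adjusted p ran from 4.50e-06 to 0.0603 for IFIT2 and from 5.92e-05 to 0.0597 for IFIT5.

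With olaparib alone IFIT1, IFIT2 and IFIT3 rose in THP-1, and these calls depended on single libraries. IFIT1 had 30.2, 21.5 and 23.9 CPM with olaparib and averaged 25.2 ± 4.47 CPM, against 15.9 ± 2.76 CPM with vehicle. IFIT2 had 25.2, 24.8 and 20.3 CPM with olaparib and averaged 23.4 ± 2.72 CPM, against 15.1 ± 2.15 CPM with vehicle. IFIT3 had 30.7, 29.5 and 27.5 CPM with olaparib and averaged 29.2 ± 1.66 CPM, against 21.1 ± 3.38 CPM with vehicle. For these 3 genes no olaparib library reached down to a vehicle library, beside 8.42% of tested genes higher without overlap. Their folds were 1.58 for IFIT1 (edgeR adjusted p = 0.0162), 1.55 for IFIT2 (edgeR adjusted p = 0.00604) and 1.38 for IFIT3 (edgeR adjusted p = 0.0267). IFIT5 averaged 9.32 ± 1.06 CPM with olaparib and 8.16 ± 1.61 CPM with vehicle, the libraries overlapped, and it was not called (1.14-fold; edgeR adjusted p = 0.751). Thus 3 of 4 members were called higher, beside 0.184% of tested genes. The count was 0 of 4 without THP-1 vehicle replicate 2, without THP-1 vehicle replicate 3 or without THP-1 olaparib replicate 1, and 0 with limma on log2(FPKM + 1). The IFIT3 call was also lost without olaparib replicate 2 (edgeR adjusted p = 0.0869). Over all alternatives the adjusted p ran from 2.51e-08 to 0.256 for IFIT1, from 1.17e-06 to 0.145 for IFIT2 and from 0.000176 to 0.327 for IFIT3. The comparisons with vehicle share the same vehicle libraries.

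Adding the second compound raised every member in THP-1. With LAA+olaparib against LAA, IFIT2 was 4.45-fold higher (edgeR adjusted p = 7.73e-15), IFIT3 3.88-fold, IFIT1 3.27-fold and IFIT5 2.30-fold (edgeR adjusted p = 5.70e-08). That was 4 of 4 members, beside 10.1% of tested genes called higher. With LAA+olaparib against olaparib, IFIT3 was 5.39-fold higher (edgeR adjusted p = 4.99e-17), IFIT1 4.86-fold, IFIT2 4.29-fold and IFIT5 3.33-fold, again 4 of 4, beside 12.3%. The lowest LAA+olaparib library lay above the highest single-compound library for each gene, beside 16.8% of tested genes against LAA and 18.5% against olaparib. The interaction asks whether the combined change on the log2 scale exceeds the sum of the single changes. It was 1.53 ± 0.15 (SE) for IFIT2 (edgeR adjusted p = 5.68e-08), 1.49 ± 0.13 for IFIT3 (edgeR adjusted p = 9.29e-09), 1.05 ± 0.17 for IFIT1 (edgeR adjusted p = 0.000148) and 1.02 ± 0.19 for IFIT5 (edgeR adjusted p = 0.000773). All 4 were called positive, where 4.04% of tested genes were. Measured as CPM, the combined level was 3.27 times the vehicle level plus both single increments for IFIT2, 3.24 times for IFIT3, 2.63 times for IFIT1 and 2.13 times for IFIT5.

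**Figure D2:**
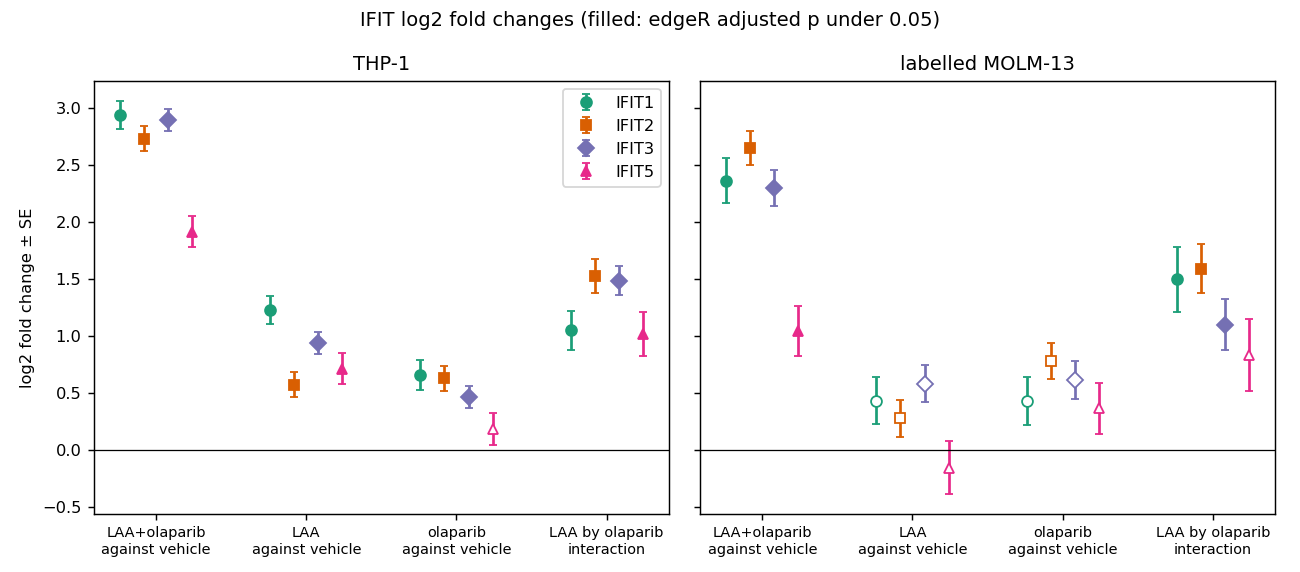
Log2 fold changes ± SE of the 4 IFIT genes for each treatment against vehicle and for the LAA by olaparib interaction, THP-1 left of the libraries labelled MOLM-13, with 3 libraries per group and filled symbols for an edgeR adjusted p under 0.05. In THP-1, IFIT5 stands below the other members with both compounds, at 1.92 against 2.73 to 2.94.

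Both compounds also went with higher IFIT levels in the libraries labelled MOLM-13, from a lower start. IFIT1 had 22.6, 27.4 and 18.1 CPM with LAA+olaparib, against 4.25, 4.2 and 4.77 CPM with vehicle. IFIT2 had 26.4, 34.2 and 29.8 CPM with LAA+olaparib, against 5.23, 4.11 and 5.01 CPM with vehicle. IFIT3 had 31.9, 42.5 and 33.6 CPM with LAA+olaparib, against 7.33, 7.09 and 7.49 CPM with vehicle. LAA+olaparib replicate 2 was the highest library for each of them, and no treated library overlapped with vehicle. IFIT5 had 9.47, 10.6 and 8.40 CPM with LAA+olaparib, against 3.80, 5.13 and 4.89 CPM with vehicle, also without overlap. Higher without overlap were 17.7% of tested genes. The folds were 6.29 for IFIT2 (log2 2.65 ± 0.15; edgeR adjusted p = 7.10e-10), 5.15 for IFIT1 (2.36 ± 0.20; edgeR adjusted p = 1.12e-07), 4.93 for IFIT3 (2.30 ± 0.16; edgeR adjusted p = 8.53e-09) and 2.07 for IFIT5 (1.05 ± 0.22; edgeR adjusted p = 0.00349). That was 4 of 4 members, beside 4.85% of 16160 tested genes called higher. Their median log2 fold change was 2.33, against 0.00 over all tested genes.

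With LAA alone in the libraries labelled MOLM-13, 0 of 4 members were called by edgeR and 2 had an unadjusted p under 0.05, beside 0.792% of tested genes called higher. IFIT3 had 8.69, 12.2 and 11.9 CPM with LAA, all above the vehicle libraries, as those of IFIT1 were, beside 9.67% of tested genes higher without overlap. Its difference was 1.5-fold (edgeR adjusted p = 0.0744). IFIT1 averaged 5.95 ± 0.71 CPM with LAA and 4.41 ± 0.32 CPM with vehicle (edgeR adjusted p = 0.347). IFIT2 averaged 5.83 ± 0.97 CPM with LAA and 4.78 ± 0.59 CPM with vehicle, and IFIT5 4.15 ± 0.93 CPM with LAA and 4.61 ± 0.71 CPM with vehicle. The libraries of IFIT2 and IFIT5 overlapped, and neither was called. IFIT3 alone was called by DESeq2 (adjusted p = 0.0378) and by edgeR without MOLM-13 LAA replicate 1 (adjusted p = 0.0468), in a range of adjusted p from 0.00847 to 0.238.

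With olaparib alone in the libraries labelled MOLM-13, 0 of 4 members were called by edgeR, 2 had an unadjusted p under 0.05 and DESeq2 called 1. Only 0.00619% of tested genes, 1 gene, was called higher. IFIT2 had 8.30, 7.54 and 8.83 CPM with olaparib, above each vehicle library, a difference of 1.72-fold (edgeR adjusted p = 0.177; DESeq2 adjusted p = 0.0152; range over alternatives 0.00144 to 0.6). IFIT3 averaged 11.2 ± 2.17 CPM with olaparib and 7.30 ± 0.20 CPM with vehicle, also without overlap (edgeR adjusted p = 0.333), beside 6.91% of tested genes higher without overlap. IFIT1 averaged 5.97 ± 1.93 CPM with olaparib and 4.41 ± 0.32 CPM with vehicle, and IFIT5 5.90 ± 2.04 CPM with olaparib and 4.61 ± 0.71 CPM with vehicle. Those libraries overlapped. IFIT5 was high in olaparib replicate 3 alone, at 8.24 CPM against 4.96 and 4.51 CPM in the other olaparib libraries, and that library also had the highest mitochondrial share of all, 11%.

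LAA+olaparib against LAA gave 4 of 4 members higher in the libraries labelled MOLM-13, beside 6.68% of tested genes. The folds were 5.18 for IFIT2, 3.81 for IFIT1, 3.29 for IFIT3 and 2.30 for IFIT5 (edgeR adjusted p = 0.00142). No libraries of a member overlapped, beside 16.9% of tested genes higher without overlap. Between these groups the summed level of the 7 genes that mark the MOLM-13 label overlapped, at 4.96 ± 1.21 CPM with LAA+olaparib and 5.74 ± 0.69 CPM with LAA. TMEM176B, which marks THP-1, was at 0.0497 to 0.364 CPM with LAA+olaparib and 0.53 to 0.971 CPM with LAA. That is 1 gene near the floor of counts. Within THP-1 it also differed between treatments, from 3.19 CPM with olaparib to 8.91 CPM with LAA+olaparib. The part of either marker set in the IFIT difference was not tested. LAA+olaparib against olaparib gave 3 of 4 members higher, beside 2.89% of tested genes. None of the 4 overlapped between these groups, beside 14.1% of tested genes higher without overlap. IFIT1 was 3.82-fold, IFIT2 3.66-fold and IFIT3 3.22-fold higher, while IFIT5 at 1.60-fold was not called (edgeR adjusted p = 0.0646). Without olaparib replicate 3 its log2 fold change was 1.00 (edgeR adjusted p = 0.0053, in a range from 0.0053 to 0.228). The interaction was called for IFIT2 (1.59 ± 0.21; edgeR adjusted p = 0.000205), IFIT1 (1.5 ± 0.28; edgeR adjusted p = 0.00596) and IFIT3 (1.10 ± 0.22; edgeR adjusted p = 0.0095), 3 of 4 members, beside 0.712% of tested genes. For IFIT5 it was 0.83 ± 0.32 (edgeR adjusted p = 0.231), and 1.16 without olaparib replicate 3 (edgeR adjusted p = 0.0356, in a range from 0.0356 to 0.46). Measured as CPM, the combined level was 3.25 times the vehicle level plus both single increments for IFIT2, 3.02 times for IFIT1, 2.43 times for IFIT3 and 1.74 times for IFIT5. Unlike in the comparison with LAA, the 7 label markers stood apart here. They summed to 4.96 ± 1.21 CPM with LAA+olaparib, 18.7 ± 0.71 CPM with olaparib and 31.8 ± 0.86 CPM with vehicle, which the interaction also uses. Their part in these IFIT differences was not tested either.

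**Figure D3:**
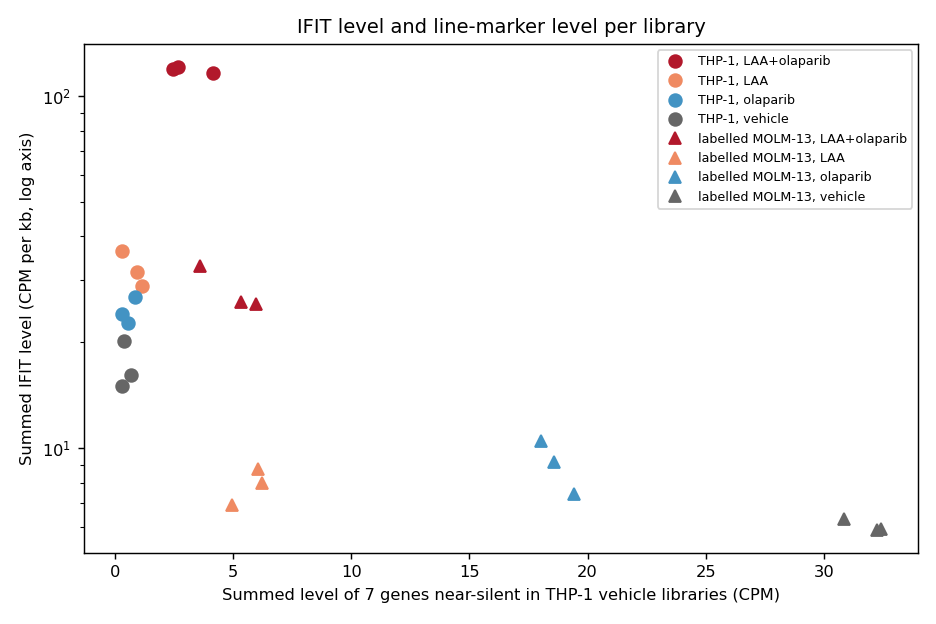
Summed IFIT level (CPM per kb, log axis) against the summed level of the 7 genes that mark the MOLM-13 label (CPM) in each of the 24 libraries, with circles for THP-1 and triangles for libraries labelled MOLM-13. The labelled MOLM-13 libraries average 4.96 CPM of these markers with LAA+olaparib and 5.74 CPM with LAA, and 28.3 and 7.89 CPM per kb of IFIT RNA. The THP-1 marker TMEM176B, not drawn, averages 0.207 CPM with LAA+olaparib and 0.793 CPM with LAA there.

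THP-1 vehicle libraries held more of each IFIT RNA than vehicle libraries labelled MOLM-13. IFIT1 averaged 15.9 ± 2.76 CPM in THP-1 and 4.41 ± 0.32 CPM in the libraries labelled MOLM-13, 3.60-fold higher in THP-1 (log2 1.85 ± 0.19; edgeR adjusted p = 2.64e-08). IFIT2 was 3.15-fold higher in THP-1 (edgeR adjusted p = 8.70e-10), IFIT3 2.89-fold (edgeR adjusted p = 4.43e-09) and IFIT5 1.78-fold (edgeR adjusted p = 0.00713). No libraries overlapped, beside 11.5% of tested genes higher in THP-1 without overlap. So 4 of 4 members were called higher in THP-1, beside 2.49% of 17089 tested genes. With the first vehicle replicate of either label left out, IFIT5 was no longer called (edgeR adjusted p = 0.0683 for MOLM-13 replicate 1 and 0.0822 for THP-1 replicate 1), in a range from 0.000104 to 0.0822.

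The treatment effects were also compared between the line labels, as THP-1 minus labelled MOLM-13 on the log2 scale. Since the line of the libraries labelled MOLM-13 was not established, these are differences between labels. For LAA+olaparib it was 0.88 ± 0.26 (SE) for IFIT5 (edgeR adjusted p = 0.0655), 0.60 ± 0.18 for IFIT3 (edgeR adjusted p = 0.0787), 0.59 ± 0.24 for IFIT1 (edgeR adjusted p = 0.217) and 0.09 ± 0.18 for IFIT2 (edgeR adjusted p = 0.863). None of the 4 was called by edgeR, where 1.53% of tested genes were called higher. An unadjusted p under 0.05 was reached by 3 members and DESeq2 called 2. Leaving out MOLM-13 LAA+olaparib replicate 2 or THP-1 vehicle replicate 1 gave 1 call, IFIT3 (edgeR adjusted p = 0.033 and 0.0418, in a range from 0.0108 to 0.201). For LAA alone the difference was 0.87 ± 0.27 for IFIT5 and 0.80 ± 0.26 for IFIT1, with edgeR adjusted p = 0.393 and 0.448. Of the 4 members 0 were called and 2 had an unadjusted p under 0.05, beside 0.129% called higher. For olaparib alone the differences lay between -0.18 and 0.23, with 0 members called and 0 at an unadjusted p under 0.05 by edgeR, and DESeq2 likewise called 0. Beside them, 0% of 17089 tested genes were called higher.

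Compared per length of the gene model, IFIT3 was the most abundant member in every library, with 43.2 to 56.3% of the summed IFIT level. In THP-1 with LAA+olaparib, IFIT3 stood at 60.0 ± 2.14 CPM per kb, IFIT1 at 26.7 ± 0.48, IFIT2 at 24.7 ± 1.24 and IFIT5 at 7.76 ± 0.26 CPM per kb. The order with vehicle was IFIT3 at 7.98 ± 1.28, IFIT2 at 3.68 ± 0.52, IFIT1 at 3.44 ± 0.60 and IFIT5 at 2.03 ± 0.40 CPM per kb, and the IFIT1 and IFIT2 libraries overlapped. In the libraries labelled MOLM-13 with LAA+olaparib, IFIT2 at 7.35 ± 0.95 CPM per kb stood above IFIT1 at 4.92 ± 1.01 CPM per kb, and their libraries did not overlap. The IFIT5 share of the family was smaller with both compounds: 6.52 ± 0.25% with LAA+olaparib and 11.8 ± 1.12% with vehicle in THP-1, and 8.41 ± 0.64% with LAA+olaparib and 19.0 ± 2.89% with vehicle in the libraries labelled MOLM-13. Neither pair of groups overlapped, and the two-sided exact permutation p was 0.1 for each, the smallest that 3 against 3 libraries allow (adjusted p = 0.191 over 44 such tests). In THP-1 the IFIT2 share was 17.0 ± 1.13% with LAA and 21.5 ± 1.6% with vehicle, and the IFIT1 share 24.9 ± 1.58% with LAA and 20.03 ± 0.41% with vehicle, both without overlap (exact permutation p = 0.1, the smallest possible). Many of the 44 share tests reached this smallest p, so a lack of overlap was common among them. The shares in a library add up to the whole and are not independent.

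Summed over the family, the 8 groups ran from 119 ± 2.56 CPM per kb in THP-1 with LAA+olaparib to 6.04 ± 0.24 CPM per kb in labelled MOLM-13 vehicle libraries. Between them came THP-1 with LAA at 32.4 ± 3.80, labelled MOLM-13 with LAA+olaparib at 28.3 ± 4.11, THP-1 with olaparib at 24.6 ± 2.15 and THP-1 with vehicle at 17.1 ± 2.71 CPM per kb. Labelled MOLM-13 libraries followed with olaparib at 9.0 ± 1.54 and with LAA at 7.89 ± 0.94 CPM per kb. In this order 3 neighbouring pairs overlapped between libraries: THP-1 with LAA and labelled MOLM-13 with LAA+olaparib, labelled MOLM-13 with LAA+olaparib and THP-1 with olaparib, and labelled MOLM-13 with olaparib and with LAA.

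The genes tested around the family did not rise with it. LIPA, the gene of lysosomal acid lipase, runs on the minus strand over chr10:89213569-89414557 and spans IFIT2, IFIT3 and IFIT1. Its exons share 65 bases, 1.58% of the exonic bases, with IFIT2 and 0 with IFIT1, IFIT3 and IFIT5, and the kit does not mark strand, so reads from the shared bases cannot be told apart. LIPA fell in THP-1 to 75.9 ± 2.88 CPM with LAA+olaparib, against 89.8 ± 3.68 CPM with vehicle (log2 fold change -0.25 ± 0.07; edgeR adjusted p = 0.00837). In the libraries labelled MOLM-13 it fell to 66.4 ± 3.18 CPM with LAA+olaparib, against 87.0 ± 5.06 CPM with vehicle (-0.39 ± 0.08; edgeR adjusted p = 0.00283). PANK1, a pantothenate kinase gene beyond IFIT5, was not called under either label with LAA+olaparib. Within 250 kb of the family CH25H had 8 counts over the 12 THP-1 libraries and 0 over the 12 labelled MOLM-13, SLC16A12 had 3 and 0, and the pseudogene IFIT6P had 0 in both. Of the 8 CH25H counts, 6 were with LAA+olaparib and 0 with vehicle. AL157400.3, a long noncoding RNA gene, had 55 counts in THP-1 and 37 in the libraries labelled MOLM-13. In THP-1 it had 30 counts with LAA+olaparib, 8 with LAA, 13 with olaparib and 4 with vehicle. Under the MOLM-13 label it had 7 with LAA+olaparib and 12 with vehicle. AL353751.1, which lies within IFIT2 on the plus strand, had 0 counts in both. None of these genes was tested. The pseudogene IFIT1P1 on chromosome 13 had 9 counts over the THP-1 libraries and 8 over those labelled MOLM-13.

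**Figure D4:**
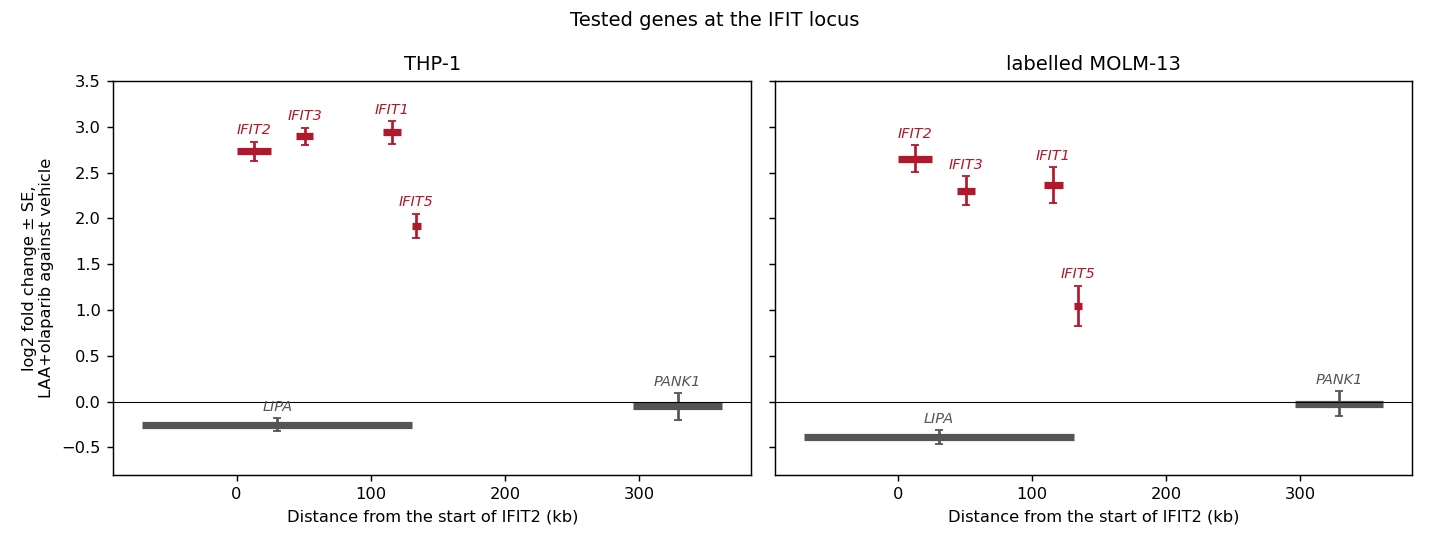
Log2 fold change ± SE with LAA+olaparib against vehicle for the tested genes around the family, drawn at their place along chromosome 10 as distance from the start of IFIT2 in kb, THP-1 left of the libraries labelled MOLM-13, 3 libraries per group. The IFIT genes lie between 1.05 and 2.94, while LIPA, which spans 3 of them on the other strand, lies at -0.25 in THP-1 and -0.39 in the libraries labelled MOLM-13.

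By library, the 4 genes moved together. The Pearson correlation of log2 CPM between members over the 12 THP-1 libraries was 0.953 to 0.991, and over the 12 labelled MOLM-13 libraries 0.779 to 0.969, lowest between IFIT1 and IFIT5. These libraries form 4 treatment groups, so the values describe group differences as well as libraries. Among 11367 protein-coding genes with a mean log2 CPM of at least 1 in THP-1, the 5 most like IFIT3 included CMPK2 (r = 0.997), HERC5, MX2 and IFIH1. The 5 most like IFIT1 were IFIH1 (r = 0.991), PARP9, CMPK2, OAS2 and HERC5. IFIT5 was nearest to OAS1 (r = 0.994), CMPK2, IFI44, OAS2 and SP110. For IFIT2 the list was TRIM22 (r = 0.995), WARS, AFAP1, NEXN and SLC31A1, of which TRIM22 stood apart in the libraries labelled MOLM-13 (r = 0.698). CMPK2 overlaps RSAD2 and TRIM22 overlaps TRIM5, each on the other strand, so their reads cannot be told apart where they overlap. TRIM22 fell in the libraries labelled MOLM-13 with LAA, 2.04-fold (edgeR adjusted p = 0.00439), while IFIT2 was at 1.21-fold and not called.

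The rest of the pathway was described by lists, from ligands to targets. Interferon genes themselves had few counts: of 22 ligand genes 0 passed the filter. Over 3 libraries each, they summed to 35 counts in THP-1 with LAA+olaparib, 11 with LAA, 1 with olaparib and 4 with vehicle. Labelled MOLM-13, the sums were 11 with LAA+olaparib, 0 with LAA, 0 with olaparib and 1 with vehicle. IFNL1, a type III interferon, had 26 of the 35 counts in THP-1 with LAA+olaparib and 3 counts with vehicle, and IFNB1, interferon beta, had 6 counts with LAA+olaparib and 1 with vehicle. These counts are too few for a fold change.

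In THP-1 with LAA+olaparib 13.5% of all tested genes were called higher and 13.5% lower, and the counts of each list stand beside these shares. Of 10 tested genes for receptors, kinases and ISGF3, 2 rose and 2 fell, near these shares, with a median log2 fold change of -0.05. STAT2 rose 1.68-fold (edgeR adjusted p = 1.47e-08) and the kinase JAK2 1.26-fold, while JAK1 was at 0.784 times and the receptor IFNAR1 at 0.881 times the vehicle level. IRF9, the DNA-binding part of ISGF3, averaged 2.50 ± 0.40 CPM with LAA+olaparib and 1.65 ± 0.38 CPM with vehicle and was not called (edgeR adjusted p = 0.19). Its reads may be shared with AL136295.5, a protein-coding gene that overlaps it on its strand. Among 7 other interferon regulatory factors IRF7 rose 3.24-fold and IRF1 1.89-fold, and IRF8 fell, with a median of 0.12 over the list. Sensors of foreign nucleic acid had 7 of 15 higher and 2 lower, with a median of 0.37. The RNA sensors DDX58 (4.51-fold), DHX58 (4.28-fold) and IFIH1 (3.36-fold) rose, as did IFI16, MYD88, TLR7 and AIM2, while TMEM173, which encodes STING, was at 0.602 times and TBK1 at 0.794 times the vehicle level. Feedback inhibitors had 3 of 8 higher and 1 lower, beside the same shares, with a median of 0.05 and with ISG15 7.75-fold (edgeR adjusted p = 2.03e-18) and USP18, which removes ISG15 and dampens the receptor, 7.56-fold higher (edgeR adjusted p = 4.99e-17). USP18 has a near-identical copy, USP41, and how reads of both were counted is not given in the sources used here.

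IFIT1 acts on caps and on the translation factor eIF3, so genes of cap methylation, RNA end processing and translation partners were set beside it. In THP-1 with LAA+olaparib 2 of 21 were higher, beside 13.5% of all tested genes, and 5 lower, also beside 13.5%, with a median log2 fold change of -0.02. CMTR1, which methylates the ribose next to the cap and so hides RNA from IFIT1, rose to 73.6 ± 4.35 CPM with LAA+olaparib, against 43.4 ± 3.22 CPM with vehicle (1.68-fold; edgeR adjusted p = 2.78e-08). RNMT, the cap guanine methyltransferase, and the eIF3 genes EIF3E, EIF3L, EIF3H and EIF3F fell, and EIF3K rose 1.31-fold. DUSP11, which trims RNA triphosphate ends, averaged 17.8 ± 0.93 CPM with LAA+olaparib and 18.2 ± 0.88 CPM with vehicle and was not called (edgeR adjusted p = 0.84). Other interferon-stimulated genes rose in 45 of 46 cases, with SP100 not called (edgeR adjusted p = 0.122), and their median log2 fold change was 1.90. This list was also chosen with earlier results of these data known, so its count is no independent test. The 5 with the smallest adjusted p were IFI44L (16.3-fold), OAS3 (6.38-fold), IFITM1 (6.23-fold), IFI27 (17.6-fold) and OAS2 (4.85-fold).

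The same lists gave fewer calls elsewhere. In the libraries labelled MOLM-13 with LAA+olaparib, 36 of 44 other interferon-stimulated genes were higher and 0 lower, beside 4.85% of all tested genes higher and 7.35% lower, with a median log2 fold change of 1.17. IFIH1 was 2.49-fold higher there, USP18 3.66-fold, ISG15 3.79-fold, IRF7 1.73-fold and CMTR1 1.37-fold. STAT2 at 1.17-fold (edgeR adjusted p = 0.088), IRF9 at 1.32-fold and IRF1 at 1.03-fold were not called. Summed CPM per library with LAA+olaparib and with vehicle went both ways over these lists. Sensors gave 729 to 753 and 834 to 861, other regulatory factors 1111 to 1148 and 1220 to 1291. The cap list gave 4626 to 4674 and 4858 to 5152, receptors, kinases and ISGF3 483 to 509 and 499 to 534. Feedback inhibitors gave 556 to 582 and 482 to 524. Such sums mostly follow the genes with the most counts. Over all libraries labelled MOLM-13, TMEM173 had 109376 counts among the sensors, against 21145 for MAVS and 5922 for IFIH1. Among the other regulatory factors IRF8 had 214386 counts, against 7417 for IRF7. A lower sum therefore does not mean that most genes of a list fell, and IFIH1 and IRF7 were higher. TMEM173 was at 0.663 times its level with LAA alone (edgeR adjusted p = 2.42e-05). With LAA alone 34 of 46 other interferon-stimulated genes were higher in THP-1 and 0 lower, beside 0.937% of all tested genes higher and 0.551% lower. With LAA and the MOLM-13 label, 6 of 44 were higher and 2 lower, beside 0.792% higher and 1.08% lower. With olaparib alone 6 of 46 were higher in THP-1, namely TRIM22, MX2, OAS2, PARP9, OAS3 and HERC5, and 0 lower, beside 0.184% of all tested genes higher and 0.0857% lower. With olaparib and the MOLM-13 label, 0 of 44 were called by edgeR and 8 had an unadjusted p under 0.05, with a median log2 fold change of 0.16, beside 0.00619% of all tested genes higher and 0% lower. In THP-1 with LAA, IRF7 rose 1.47-fold, IFIH1 1.64-fold, DDX58 1.62-fold and USP18 2.18-fold. With olaparib, 0 of 10 receptor, kinase and ISGF3 genes, 0 of 7 regulatory factors, 0 of 15 sensors and 0 of 8 feedback inhibitors were called by edgeR in THP-1. An unadjusted p under 0.05 was reached by 1, 3, 6 and 2 of them, in that order. In vehicle libraries, 33 of 46 other interferon-stimulated genes were higher in THP-1 than in the libraries labelled MOLM-13 and 1 lower, beside 2.49% of all tested genes higher and 1.99% lower. There IRF7 was 1.83-fold and ISG15 2.91-fold higher in THP-1, while IRF1 was lower.

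**Figure D5:**
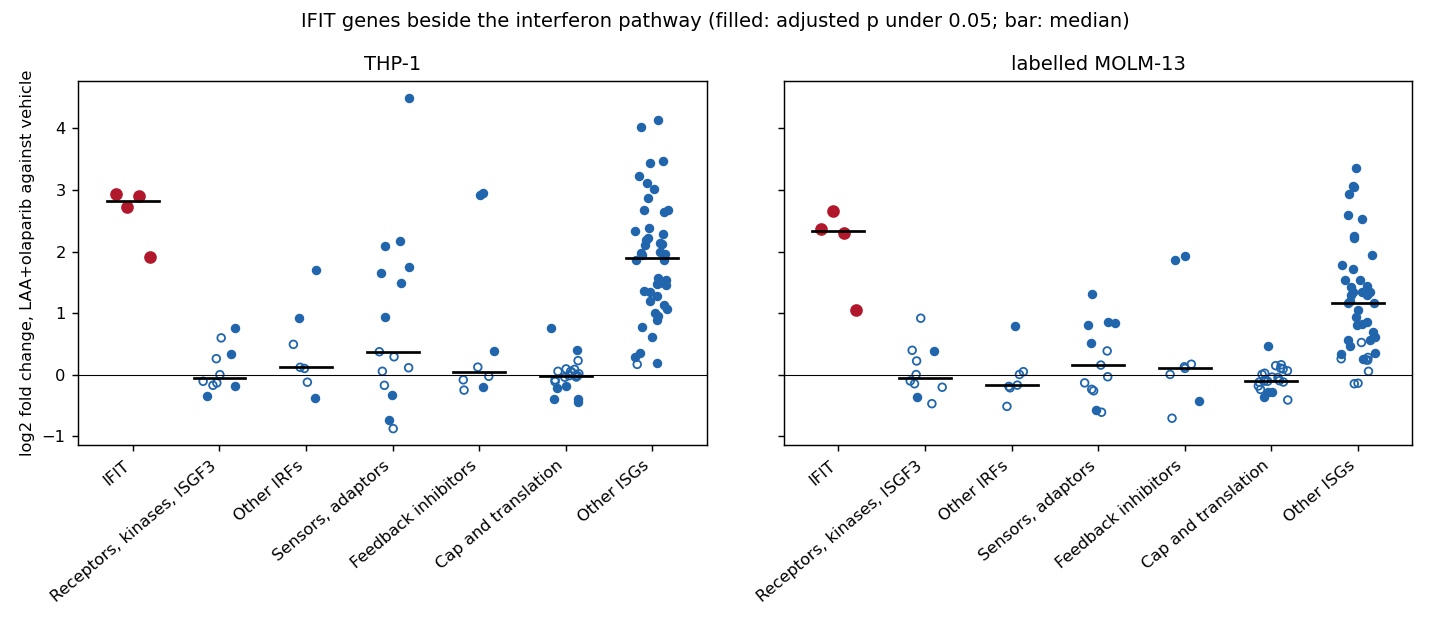
Log2 fold change with LAA+olaparib against vehicle of the IFIT genes and of 6 gene lists of the interferon pathway, THP-1 left of the libraries labelled MOLM-13, 1 point per tested gene (filled: edgeR adjusted p under 0.05) and bars for medians. The other interferon-stimulated genes have a median of 1.90 in THP-1 and 1.17 in the libraries labelled MOLM-13, and the cap and translation list one of -0.02 in THP-1.

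Markers of other cell types were summed beside the family, and their part in its change was not tested. The 9 monocytic markers summed to 1006 to 1033 CPM per library in THP-1 with LAA+olaparib and 786 to 801 CPM with vehicle, with 2 genes called higher and 2 lower, beside 13.5% of all tested genes in each direction. They summed to 692 to 738 CPM in libraries labelled MOLM-13 with LAA+olaparib and 738 to 766 CPM with vehicle. Genes of the KMT2A fusion program had 0 of 5 higher and 3 lower in THP-1 with LAA+olaparib, beside the same shares. With both compounds and the MOLM-13 label, 1 of 6 was higher and 2 lower, beside 4.85% of all tested genes higher and 7.35% lower, and 1 of the lower genes is MEIS1, which is also among the 7 label markers. T and NK cell markers summed to 13.9 to 16.1 CPM per library in THP-1 with LAA+olaparib and 15.1 to 15.9 CPM with vehicle, with 4 and 2 of 8 genes at 0 counts. Labelled MOLM-13, the sums were 6.03 to 7.09 CPM with LAA+olaparib and 9.82 to 12.1 CPM with vehicle, without overlap, with 3 and 4 of 8 genes at 0 counts, and NKG7 was called lower (0.563 times the vehicle level; edgeR adjusted p = 0.00525), 1 of 2 tested genes. B cell markers summed to 18.6 to 21.9 CPM with LAA+olaparib and 13.05 to 13.8 CPM with vehicle in THP-1, where PAX5 was called higher, 1 of 4 tested genes. Labelled MOLM-13, they summed to 14.4 to 16.7 CPM with LAA+olaparib and 15.2 to 19.2 CPM with vehicle, with 0 of 4 called by edgeR and 1 at an unadjusted p under 0.05. Erythroid and megakaryocyte markers stayed at or below 2.10 CPM, and epithelial and fibroblast markers at or below 3.78 CPM, in all 24 libraries. The plasmacytoid dendritic cell list holds IRF7, itself an interferon-stimulated gene, and summed to 155 to 188 CPM with LAA+olaparib and 66.8 to 73.2 CPM with vehicle in THP-1. Its defining marker CLEC4C had 0 counts in all groups, LILRA4 stayed at or below 0.28 CPM on average, and IL3RA was lower with LAA+olaparib, at 9.96 ± 0.68 CPM against 17.0 ± 1.60 CPM with vehicle. In the libraries labelled MOLM-13 that list summed to 54.1 to 68.9 CPM with LAA+olaparib and 49.5 to 55.0 CPM with vehicle.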

How the data were processed

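Per the labels' protocols, messenger RNA was picked by its polyA tail and made into libraries that do not keep strand. HISAT2, SAMtools, DESeq2 and the build hg38 are named, without roles, per the submitters' processing notes. Which program counted reads, and on which annotation, is not given in the sources used here. Raw counts deposited by the authors cover 58735 genes in 24 libraries. The deposited FPKM values equal those counts over gene-model length and 1 library size each.

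Fits used edgeR 4.0.16 (R 4.3.3) on the 12 libraries of a line label (filterByExpr, TMM, quasi-likelihood F test, Benjamini-Hochberg over all tested genes, threshold 0.05), and comparisons between the labels over all 24. That made 16 comparisons. SE is the log2 fold change over the root of F. Levels per kb divide CPM by the deposited gene length. Correlations used log2 CPM with a prior count of 2. Coordinates and exons were checked against GENCODE.

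The members and gene lists were chosen with earlier results of these data known. Named were the members, up to 5 called genes per list with the smallest adjusted p in THP-1 LAA+olaparib against vehicle plus STAT2, IRF9, IRF7, IRF1, IFNB1, USP18, DDX58, IFIH1, CMTR1 and DUSP11, 5 genes most like each member, genes within 250 kb, and IFIT relatives. A gene that these rules would name is not reported here and is left out of the list counts. Genes named beyond that were chosen after their values were seen. Alternatives were RLE or total-count scaling, no filter, DESeq2 1.42.0, limma 3.58.1 on log2 FPKM, a replicate block, each library left out, and only the groups compared.

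The fit was tested on simulated counts with 200 genes changed. It found 67% of 2-fold and 91% of 4-fold changes in THP-1 LAA+olaparib against vehicle, and 3.66% of its calls were false. For LAA+olaparib in the libraries labelled MOLM-13 it found 72% and 87%, and between the vehicle groups 69% and 85%. The real THP-1 comparison called far more genes, 2211 of them higher, so its recovery may differ. Between replicates, chi-square per gene was 3.87 to 25.1 over 24 pairs, so no pair differed by as little as sampling noise.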

Additional observations from a re-analysis of the deposited data

How the results depend on the processing

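Of 1008 member fold changes under alternatives, 958 kept direction and side of the threshold, 24 lost and 23 gained a call, and 3 turned. All calls of LAA+olaparib against vehicle held under every alternative run for both labels. Calls per comparison ran from 2 (without THP-1 LAA replicate 3) to 4 for LAA in THP-1 and from 0 to 3 for olaparib in THP-1 when single libraries were left out. Olaparib in THP-1 gave 0 calls with limma on log2(FPKM + 1) and 0 on log2(FPKM + 0.1). In the libraries labelled MOLM-13, LAA gave 1 call without a filter, 1 by DESeq2 and 0 to 1 with libraries left out, and olaparib 2 without a filter and 1 by DESeq2. The difference between the line labels in the LAA effect gave 1 call without a filter. That in the LAA+olaparib effect gave 3 without a filter, 2 by DESeq2, 3 with limma on log2(FPKM + 1), 2 with only the groups compared and 0 to 1 with libraries left out. Turned values were all in the label difference of the olaparib effect: IFIT2 0.0511 with limma on log2(FPKM + 1), and, with single libraries left out, IFIT3 from -0.271 to 0.0146 and IFIT5 from -0.344 to 0.144, above 0 without MOLM-13 olaparib replicate 3. The causes were not tested.

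Counts of all genes called moved by more than 1.5 times in all but the LAA+olaparib comparisons of THP-1. In THP-1, edgeR called 243 genes with LAA (114 to 383 over the alternatives), 44 with olaparib (6 with limma on log2(FPKM + 1) to 124 without a filter) and 1237 in the interaction (797 to 1478). Among the libraries labelled MOLM-13 it called 303 with LAA (113 to 524), 1 with olaparib (0 to 194), 1972 with LAA+olaparib (1043 to 2947), 2413 with LAA+olaparib against LAA (1029 to 3168), 1208 against olaparib (624 to 1485) and 329 in the interaction (206 to 555). Between the labels it called 24 in the LAA effect (13 to 102), 1 in the olaparib effect (0 to 34), 364 in the LAA+olaparib effect (211 to 731) and 765 with vehicle (369 with the block to 906).

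No pairing by replicate number was seen: 0 of 18 same-numbered pairs under either label had deviations correlated above 0.1 (highest 0.0849). This correlation over all tested genes cannot show that same-numbered samples were handled apart. With the replicate number as a block, 2 instead of 3 members were called with olaparib in THP-1 (IFIT3 adjusted p = 0.055, edgeR), and no other member's call changed. With 3 libraries a group, exact tests of shares cannot go below 0.1.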
